A study of Mus musculus with 36 samples.

Results

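The microRNA miR-342 was followed in B3 cells, a mouse pre-B cell line, over 24 h of Ikaros induction. Both of its arms, miR-342-3p and miR-342-5p, were in the table, so that 2 of the 469 measured miRNAs are described here. They were found by name, as every row that begins with mmu-miR-342-. The 3p arm was selected on results of these data. These were its line difference at 24 h beyond that at 0 h and its relation to Ldha. The study drew that relation from a target database and from correlation in the same samples. The differences of the 3p arm are therefore given with their standard errors (SE) and without p-values. The 5p arm was not chosen by its values.

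Small RNA was sequenced from a pair of B3 lines. The Ikaros line was transduced with an MSCV retrovirus for HA-Ikaros-ERt2-IRES-GFP, in which Ikaros carries the ERt2 part of the estrogen receptor and enters the nucleus once 4-hydroxy-tamoxifen (4-OHT) is given. The control line carries ERt2-IRES-GFP without Ikaros. The construct is thus expressed from a viral vector, in cells sorted for GFP. The labels state 0.5 uM 4-OHT for every sample, whereas the methods describe 0 h as without drug. Samples were taken at 6 times, 0, 2, 6, 12, 18 and 24 h. There were 3 per line and time, or 36 in all. The cultures at 0 h were batches 4, 5 and 6, and those at 2 h to 24 h were batches 1, 2 and 3, so a change since 0 h within a line cannot be told apart from a change of culture.

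A microRNA is cut from a hairpin in a longer transcript. Its arms are released as a duplex, and the arm loaded into an Argonaute protein guides it to messenger RNAs that pair with bases 2 to 8 of the arm, the seed. The hairpin of miR-342 lies within Evl, the gene of an Ena/VASP family protein that promotes the assembly of actin filaments. MicroRNAs inside introns are often made from the transcript of their host. Ikaros is a transcription factor of lymphocytes that pre-B cells need to stop dividing and mature.

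The sequences of both arms and of the hairpin show what was counted and where the arms sit. They were taken from RefSeq (GRCm38.p6). Capitals mark the seeds in the mature sequences and both arms in the hairpin.
mmu-miR-342-3p: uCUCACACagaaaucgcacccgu
mmu-miR-342-5p: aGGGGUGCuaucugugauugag
Mir342 hairpin: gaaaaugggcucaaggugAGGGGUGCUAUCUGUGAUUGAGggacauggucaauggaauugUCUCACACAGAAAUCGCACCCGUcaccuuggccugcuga
The 3p arm has 23 bases and takes positions 61 to 83 of the 99 bases of the hairpin. The 5p arm has 22 bases and takes positions 19 to 40. No other of the 1679 mature names of the mouse table shares the seed CUCACAC of the 3p arm, or its bases 2 to 7. No other shares the seed GGGGUGC of the 5p arm, and the 2 that share its bases 2 to 7, miR-6931-5p and miR-6943-5p, were not among the measured miRNAs. In RefSeq, each arm is annotated to 1 hairpin, Mir342.

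Mir342 lies on chromosome 12 (plus strand), between 108658620 and 108658718. Evl runs from 108554720 to 108688516 on the same strand. The hairpin starts 103.9 kb after the start of Evl, and 5 of the 7 annotated Evl transcripts hold it in an intron. In the principal transcript, Evl-201, this is intron 3, from 108653100 to 108673288 (20189 bases). The remaining transcripts begin downstream of the hairpin. The Evl messenger RNA is not analysed here.

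**Figure D1:**
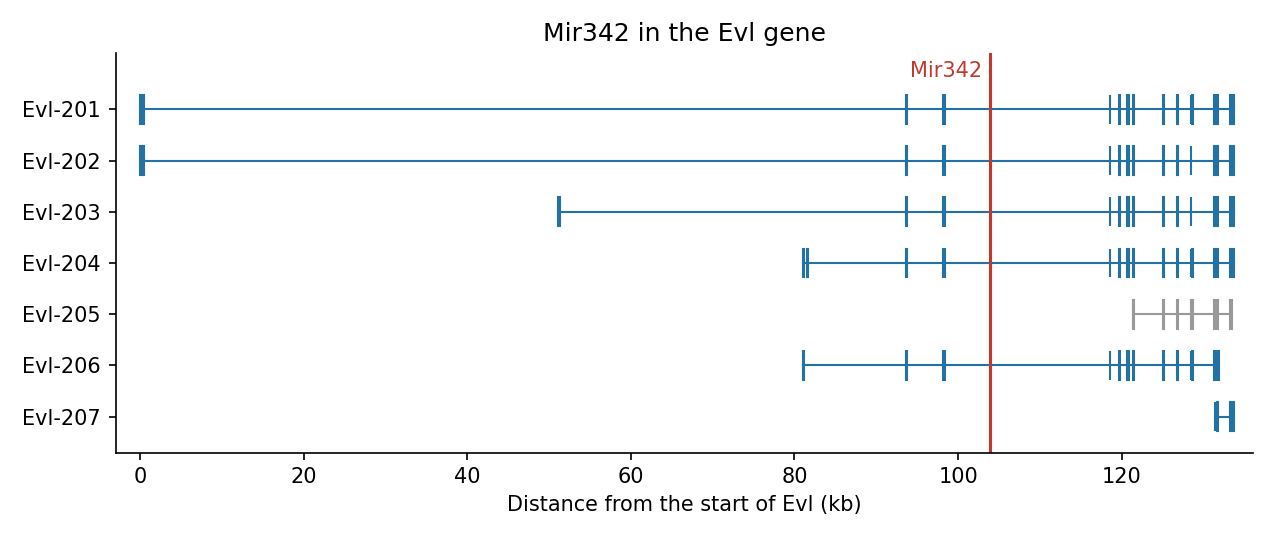
Map of the 7 annotated Evl transcripts, with the distance from the start of the gene in kb on the x axis. Boxes are exons, lines are introns, protein-coding transcripts are blue and a retained-intron transcript is grey. The red line at 103.9 kb is Mir342, which falls in the intron of 5 transcripts.

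The deposited values are normalised log2 values per miRNA, without counts, so the depth behind them is unknown. Line and sequencing run were not independent in this series. According to the design drawn in the study, most Ikaros samples went into a first sequencing batch together with the control samples of the first and last time, while a second batch held the control samples in between. The authors corrected this with ComBat. Per the methods, some samples were run in both batches, so that the batch effect could be estimated apart from line and time. Of the blood cell markers, miR-181a-5p stood in rank 2, miR-181b-5p in rank 7 and miR-142-5p in rank 8 of the 469 mean levels, while miR-150-5p, miR-155-3p and miR-181b-2-3p stood in ranks 236, 235 and 291. The erythroid markers miR-451a and miR-144 had no row. Of the brain markers, miR-124 had no row but miR-9-5p stood in rank 17. The epithelial markers with the highest levels, miR-200c-3p and miR-200b-3p, stood in ranks 202 and 211, above those 3 blood cell miRNAs. The other blood cell rows, miR-181a-1-3p, miR-142-3p and miR-155-5p, were in ranks 10, 18 and 54. The liver marker miR-122 and the muscle markers miR-1a and miR-133a had no row. The endocrine marker miR-375-3p was in rank 429.

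MiR-342-3p was of middle to high abundance. Its rank among the 469 miRNAs of a sample was between 91 and 132, with a median of 117. On the linear scale it made up between 0.00491% and 0.0266% of the summed values of a sample. Its replicates lay close together. The SD within groups, pooled over the 12 groups, was 0.17, against a median of 0.36 over all miRNAs, and 22 miRNAs had a smaller one. Among the 100 miRNAs nearest to it in level this median was 0.31. The 12 group means of miR-342-3p spanned 1.66 log2 units, against a median span of 1.02 for those 100.

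MiR-342-3p overlapped between the lines at 0 h and stood higher in the Ikaros line from 2 h on, and most so at 18 h and 24 h. At 24 h the Ikaros line held 2.43-fold the level of the control line. In bulk samples, more cells with the miRNA and more of it per cell cannot be told apart.

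At 0 h the log2 values of replicates 1, 2 and 4 were 7.24, 7.04 and 7.47 in the control line. They were 7.30, 7.22 and 7.53 in the Ikaros line. The lines overlapped at this time, with a difference (Ikaros minus control) of 0.10 (SE 0.16, n = 3 per line). At 2 h the control samples were at 6.85, 6.90 and 6.67 and the Ikaros samples at 7.08, 7.44 and 7.43. The difference was 0.51 (0.21 after quantile normalisation). The control mean was 7.25 at 0 h and 6.81 at 2 h, and the Ikaros mean 7.35 and 7.32. The cultures of 0 h and 2 h were different batches, so which line moved cannot be told.

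At 6 h the control samples were at 7.02, 6.92 and 7.04 and the Ikaros samples at 7.26, 7.34 and 7.31, a difference of 0.31. These are narrow groups, with an SD of 0.06 (control) and 0.04 (Ikaros). At 12 h the control samples were at 6.92, 6.46 and 7.03 and the Ikaros samples at 7.52, 7.88 and 7.63. Replicate 2 of the control line was the lowest of all 36 samples, and replicate 2 of the Ikaros line the highest of its group. The difference of 0.88 fell to 0.60 without replicate 2.

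At 18 h the control samples were at 7.03, 6.85 and 6.94 and the Ikaros samples at 8.16, 8.12 and 8.17. The difference was 1.21, or 2.31-fold. At 24 h the control samples were at 7.09, 7.10 and 7.34 and the Ikaros samples at 8.68, 8.49 and 8.21. The difference was 1.28, the largest of the 6 times for this miRNA. The SE was 0.16 at each time.

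All 3 Ikaros samples were above all 3 control samples at 2, 6, 12, 18 and 24 h, but not at 0 h. At 0 h such a separation was seen in 12.6% of all 469 miRNAs. The share was 16.8% at 2 h, again 16.8% at 6 h, 15.8% at 12 h, then 22.2% at 18 h, and it reached 23.9% at 24 h. In samples of the same replicate number, which were grown in one culture batch, the Ikaros value was higher in 18 of 18 pairs. These pairs differed by 0.06, 0.18 and 0.06 at 0 h and by 1.59, 1.39 and 0.87 at 24 h. The pairs of 2 h to 24 h all came from culture batches 1, 2 and 3, so they are not independent of each other. The share of all miRNAs with every pair higher was not counted.

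**Figure D2:**
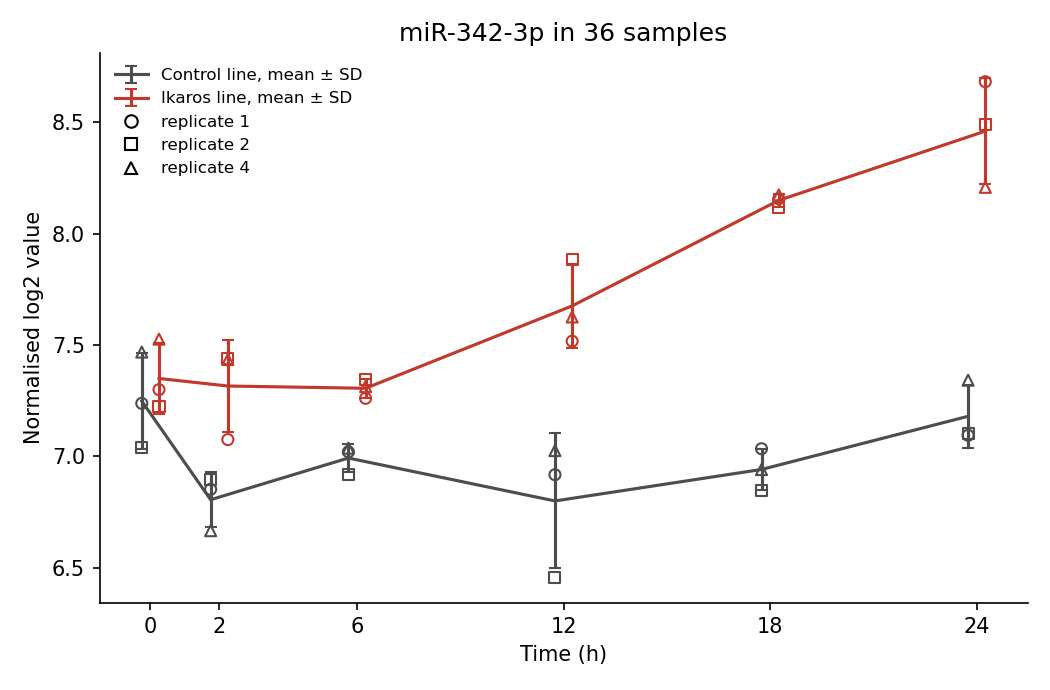
Normalised log2 values of miR-342-3p (y axis) by time in h (x axis), with symbols for replicates 1, 2 and 4 and lines and bars for the mean ± SD of 3 samples, drawn slightly side by side. The Ikaros samples separate from the control samples at 2 h and stand higher at each time from 12 h to 24 h, while the control samples stay between 6.46 and 7.47.

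Along the Ikaros series the mean moved by less than 0.05 up to 6 h and was then higher at each later time. At 0, 2 and 6 h the means were 7.35 ± 0.16, 7.32 ± 0.21 and 7.31 ± 0.04 (SD, n = 3). Later they were 7.68 ± 0.19 (12 h), 8.15 ± 0.03 (18 h) and 8.46 ± 0.24 (24 h). The steps from 6 h to 12 h (0.37), from 12 h to 18 h (0.47) and from 18 h to 24 h (0.31) were between groups that did not overlap. Those from 0 h to 2 h and from 2 h to 6 h were between groups that did. The control line also had steps without overlap, from 0 h to 2 h (-0.44), 2 h to 6 h (0.19) and 18 h to 24 h (0.24). The share of all miRNAs with such steps was not counted. In each of the 3 replicate numbers the highest value was that of 24 h. Between 2 h and 24 h, where cultures were shared, the Ikaros mean differed by 1.14 (SE 0.16), and single replicates by 1.61, 1.05 and 0.77 (numbers 1, 2 and 4). This is 2.21-fold.

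In the control line the means at 0, 2 and 6 h were 7.25 ± 0.22, 6.81 ± 0.12 and 6.99 ± 0.06 (SD, n = 3). Those of the later times were 6.80 ± 0.30 (12 h), 6.94 ± 0.09 (18 h) and 7.18 ± 0.14 (24 h). From 2 h to 24 h the difference was 0.37 (SE 0.16), and from 0 h to 24 h it was -0.07. The 6 control samples of 0 h and 24 h were all above the 12 control samples of 2 h to 18 h. The former ranged from 7.04 to 7.47 and the latter from 6.46 to 7.04, with no overlap before rounding. Their means differed by 0.33 (SE 0.10), a comparison made after the values were seen. The control samples of 2 h to 18 h are mostly those of the second sequencing batch. Time and any batch effect left after the correction thus cannot be told apart in this pattern. Over all 469 miRNAs, miR-342-3p included, there were 53 (11.3%) in which the control means of 0 h and 24 h were both above the means of all times between, and 23 (4.9%) in which both were below. These are counts of means. The share of miRNAs whose single control samples are all apart in this way was not counted.

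The line differences at 2 h to 18 h set Ikaros samples of the first batch against these control samples. Those at 0 h (0.10) and 24 h (1.28) are mostly within one batch. The difference at 24 h beyond that at 0 h was 1.18 (SE 0.23), and it was 1.00 without replicate 1 and 1.36 without replicate 4.

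Ordered by level, all 6 control groups lay below all 6 Ikaros groups. From the lowest up they were control 12 h, 2 h, 18 h and 6 h, whose neighbours overlapped, and then control 24 h and 0 h. Next came Ikaros 6 h, 2 h and 0 h, between 7.31 and 7.35, and these means differed by less than the spread within groups. Control 0 h, at 7.25, overlapped with Ikaros 6 h. Above them stood Ikaros 12 h, 18 h and 24 h, where 18 h overlapped with neither neighbour.

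Among all miRNAs the line difference of miR-342-3p was in place 161 of 469 at 0 h, counted from the most positive. It was in place 85 at 2 h, 124 at 6 h and 42 at 12 h, and in place 25 and then 24 by the last times. At 24 h it was at the edge of the highest 5%, which began at 1.27. The median line difference over all miRNAs was -0.07 at 24 h. By its Ikaros values of 24 h minus 2 h, miR-342-3p was in place 21.

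**Figure D3:**
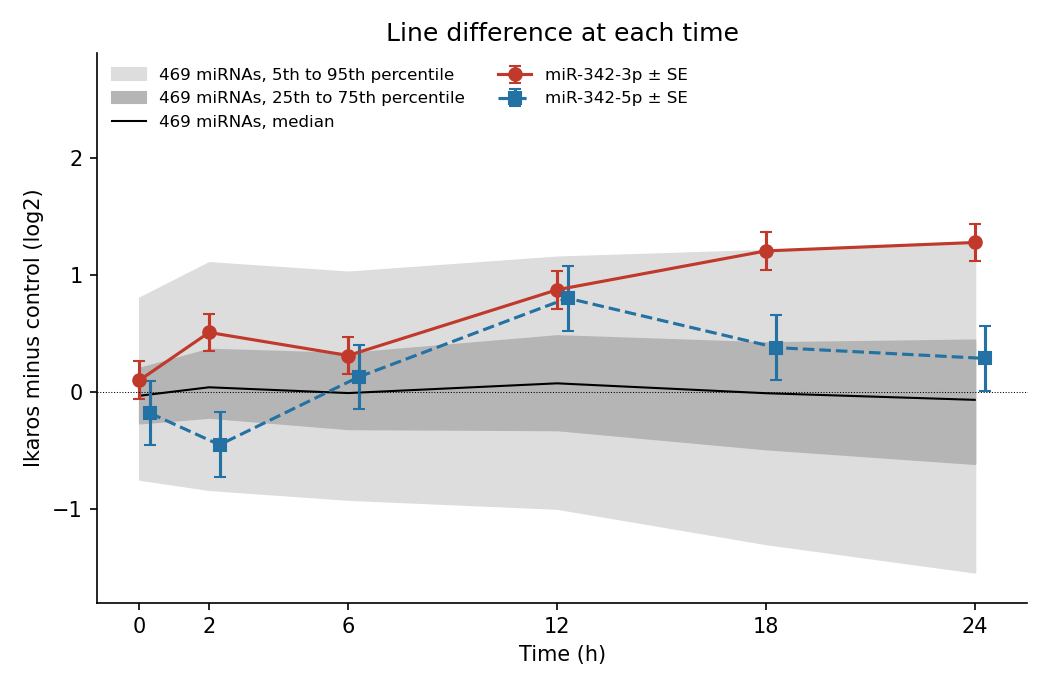
Line difference (Ikaros minus control, log2, y axis) by time in h (x axis) for miR-342-3p and miR-342-5p, with bars of 1 SE, over the spread of all 469 miRNAs (grey bands and median line). MiR-342-3p moves from 0.10 at 0 h, within the middle of all miRNAs, to 1.28 at 24 h, at the 95th percentile, while miR-342-5p is within the 5th to 95th percentile at each time.

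The 5p arm was much the scarcer one. Its log2 values were between 0.65 and 2.29, and its rank in a sample between 324 and 448. Averaged over groups, the 3p arm stood 5.75 log2 units (53.6-fold) above it. The arms have nearly the same length, but the authors' correction for GC content can shift the levels of different miRNAs against each other. Over the 101 hairpins with both arms in the table and 1 known locus the median gap between arms was 2.70, and 24 had a wider gap than miR-342.

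At 12 h the control samples of miR-342-5p were at 0.92, 0.65 and 1.79 and the Ikaros samples at 2.21, 1.71 and 1.85. The groups overlapped in control replicate 4. The difference of 0.80 (SE 0.28) passed the test at this time by limma over all miRNAs (adjusted p = 0.0376), where 12.6% of miRNAs were called higher. The call depended on single replicates: the difference was 0.56 without replicate 1 (adjusted p = 0.347), 0.67 without replicate 2 (adjusted p = 0.279) and 1.18 without replicate 4 (adjusted p = 0.00645). It did not pass in a model of the 12 h samples alone (adjusted p = 0.281).

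At 24 h the control samples of miR-342-5p were at 1.79, 1.62 and 1.36 and the Ikaros samples at 2.19, 1.85 and 1.59, a difference of 0.29 that did not pass (limma adjusted p = 0.448). All 3 pairs of the same number were higher in the Ikaros line, by 0.41, 0.23 and 0.23, but the groups overlapped. The differences at 0, 2, 6 and 18 h were -0.18, -0.45, 0.13 and 0.38, and none of them passed (limma adjusted p = 0.866, 0.341, 0.857 and 0.317). The signs at 0 h and 6 h turned without replicate 2, to 0.088 and -0.028. The difference at 24 h beyond 0 h was 0.47 (limma adjusted p = 0.465). The Ikaros samples of 24 h were 0.35 above those of 2 h (limma adjusted p = 0.382), and the control samples differed by -0.39 (limma adjusted p = 0.679).

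The excess of 3p over 5p at 24 h was 6.58 ± 0.08 among Ikaros and 5.59 ± 0.35 among control samples (SD, n = 3). The lines did not overlap, with Ikaros samples between 6.49 and 6.64 and control samples between 5.31 and 5.98. At 2 h it was 5.79 ± 0.30 and 4.83 ± 0.40, with Ikaros samples from 5.61 and control samples up to 5.12. The lines were also apart at 18 h, from 6.02 and up to 5.99. They overlapped at 0 h, 6 h and 12 h, and at 12 h the means were 5.75 ± 0.43 and 5.68 ± 0.40. Since 3p was selected on its difference at 24 h, no test is given for the excess. How many other hairpins have an arm difference that sets the lines apart in this way was not counted. The line difference at 24 h was 0.99 larger in 3p than in 5p, against a median gap of 0.52 between arms over the 101 hairpins. The 5p arm is near the low end of the table, and these hairpins were not matched to it in level. The arms of 71 of these hairpins had line differences of the same sign at 24 h, as those of miR-342 did. Over the 12 group means the arms of miR-342 had r = 0.52, equal to the median of these hairpins, and over the 36 samples r = 0.41 (median 0.35). Arms of a hairpin share libraries and normalisation, so these values are descriptions.

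**Figure D4:**
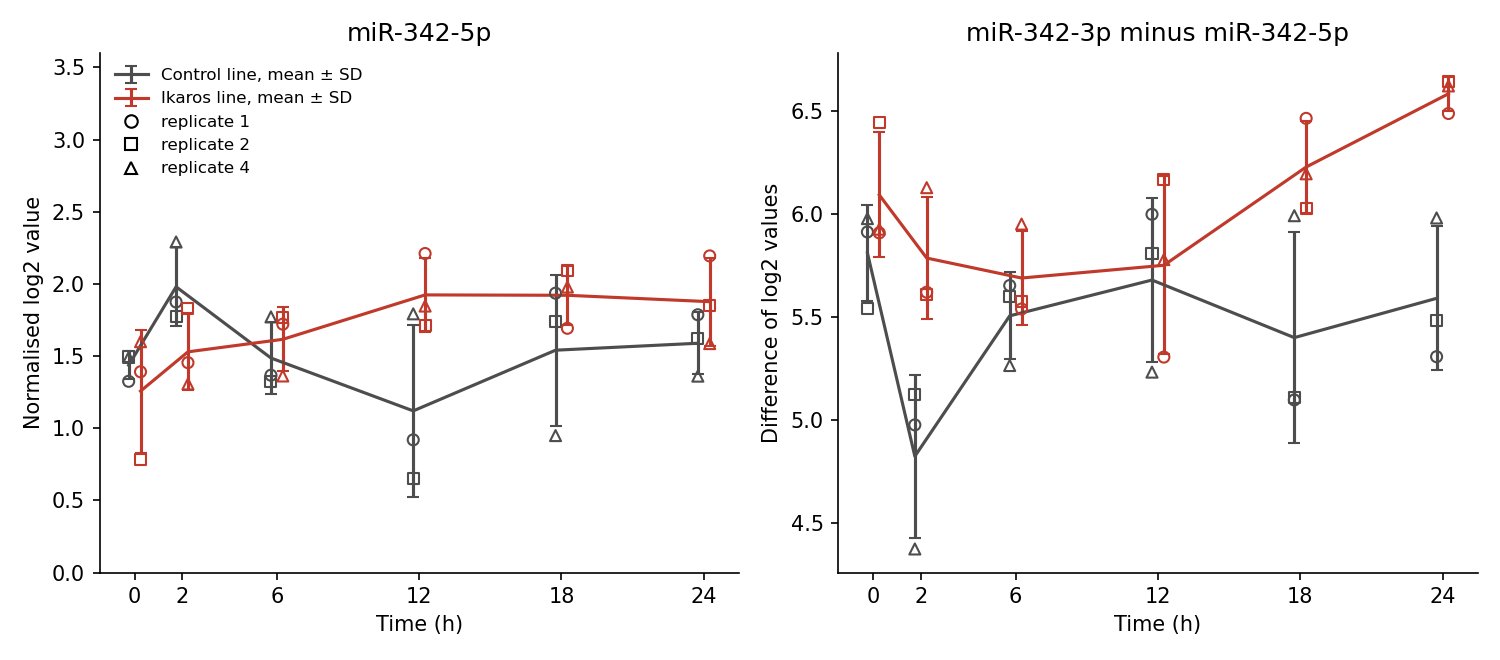
Left, normalised log2 values of miR-342-5p (y axis) by time in h (x axis). Right, the log2 value of 3p minus that of 5p in the same samples. Symbols are replicates 1, 2 and 4, and lines with bars the mean ± SD of 3 samples. The 5p values of the lines overlap at every time, while 3p minus 5p separates at 2 h, at 18 h and at 24 h, in the last at 6.49 to 6.64 against 5.31 to 5.98.

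The miRNAs with the course most like that of miR-342-3p were sought over the 12 group means. The 5 highest Pearson correlations were those of miR-328-3p (0.966), miR-872-3p (0.964), miR-361-5p (0.962), miR-22-5p (0.958) and miR-29c-3p (0.952). Of the 468 other miRNAs 15 had r over 0.9 and 10 had r under -0.9, while 175 lay between -0.5 and 0.5. The points share libraries, normalisation and culture batches, and the late Ikaros groups lie farthest from the rest.

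MiR-872-3p, from an intron of Ift74, was the one whose single samples followed most closely (r = 0.91 over 36 samples). Its Ikaros means were 9.07 ± 0.29 (2 h) and 9.79 ± 0.11 (24 h), and its control means 8.47 ± 0.09 and 8.62 ± 0.13 (SD, n = 3). Unlike miR-342-3p, its lines were already apart at 0 h, with 8.93 to 8.98 in the Ikaros and 8.55 to 8.73 in the control line. MiR-328-3p followed by its group means but less by its samples (r = 0.64), and its Ikaros samples at 24 h ranged from 7.32 to 8.10.

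MiR-361-5p lies in an intron of Chm, the gene of Rab escort protein 1. Between 2 h and 24 h its Ikaros mean went from 9.37 to 10.15. MiR-22-5p, the partner arm of miR-22-3p, was at low levels and went from 2.58 to 3.99. MiR-29c-3p, of a family known to repress DNA methyltransferases and collagens, went from 5.76 to 7.01. At 24 h these were above the control line by 0.86, 1.78 and 1.71.

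The 5 most opposite courses were those of miR-92a-1-5p (r = -0.969), miR-19b-2-5p (-0.940), miR-182-5p (-0.935), miR-7a-5p (-0.928) and miR-467c-5p (-0.921). MiR-92a-1-5p, a partner arm of the miR-17-92 cluster, had Ikaros samples between 12.09 and 12.80 at 2 h and between 9.51 and 10.02 at 24 h. Its control means were 12.96 ± 0.19 and 13.06 ± 0.09 (SD, n = 3). MiR-19b-2-5p, from the related cluster on chromosome X, was at 3.57 and 2.34 in the Ikaros line at these times. MiR-182-5p, of a cluster with miR-183 and miR-96, was at 11.95 and 10.98.

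**Figure D5:**
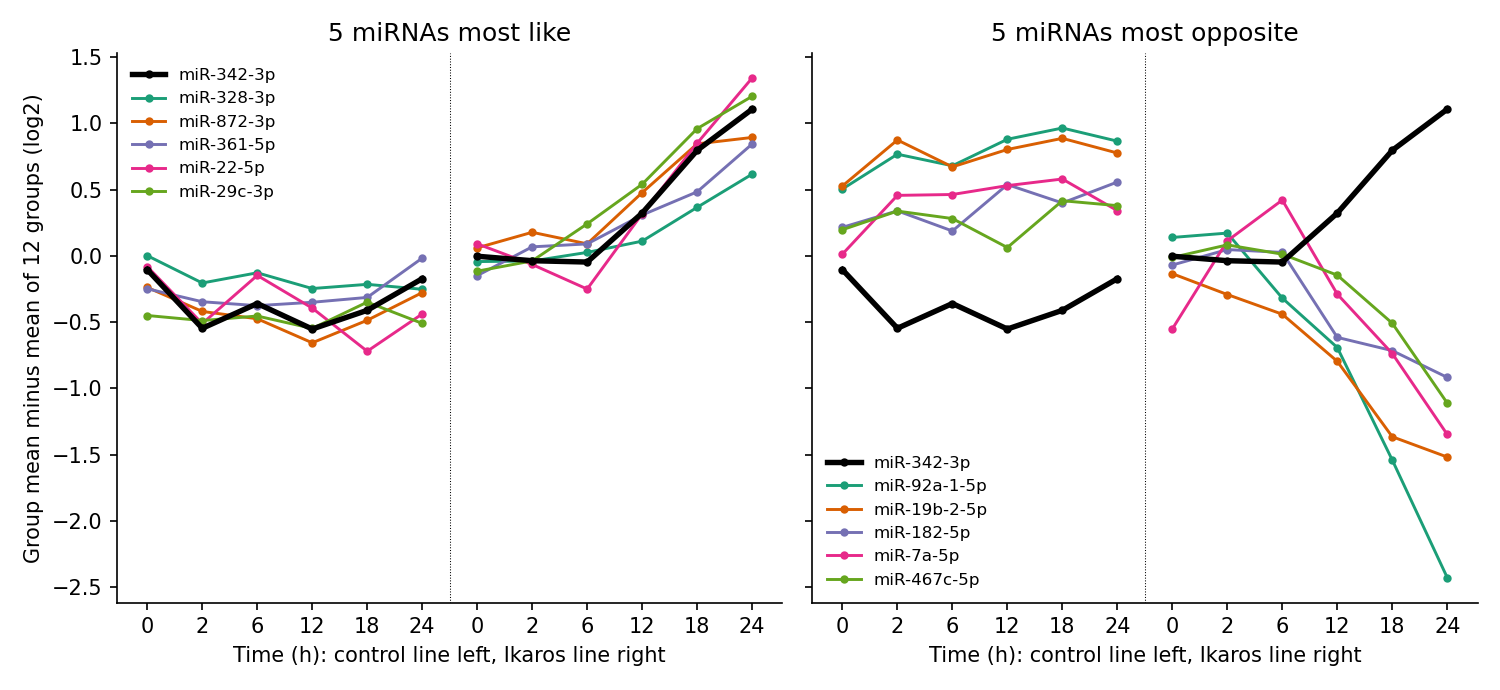
Group means minus the mean of the 12 groups (log2, y axis) by time in h (x axis, control line on the left of each panel, Ikaros line on the right) for miR-342-3p in black and the 5 miRNAs with the highest (left panel) and lowest (right panel) Pearson correlation with it. The like miRNAs stand higher at 24 h than at 6 h in the Ikaros line, as it does, and the opposite ones lower.

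The study relates miR-342-3p to Ldha, which encodes lactate dehydrogenase A, together with miR-449a-5p, miR-450b-3p and miR-1933-5p. These were chosen by the study on the same samples, so their direction is no independent evidence. At 24 h 1 of these 3 passed the test as higher in the Ikaros line (limma, all miRNAs), where 17.9% of miRNAs were called higher. This was miR-449a-5p, at 4.03 ± 0.37 against 3.35 ± 0.22 (SD, n = 3), a difference of 0.68 (limma adjusted p = 0.0344). It was not called without replicate 2, without replicate 4 or with a replicate block by culture batch, each of which left 0 of 3. MiR-450b-3p differed by 0.76 (limma adjusted p = 0.0633) and miR-1933-5p by 0.47 (adjusted p = 0.224). The median of the 3 was 0.68, against -0.07 over all miRNAs. None of the 3 passed for 24 h beyond 0 h, where 5.76% were called higher, or for 24 h against 2 h in the Ikaros line, where 9.81% were.

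The 3′ untranslated part of the principal Ldha transcripts was searched for letters that pair with the seed of miR-342-3p. The search was on the transcript's own strand in 485 or 486 bases. GTGTGAG, which pairs with bases 2 to 8, was not there, and 4.46% of 14341 windows of 485 bases, each the start of the 3′ untranslated part of another gene or of Ldha, hold it. TGTGAG, which pairs with bases 2 to 7 and is contained in the longer stretch, was found 2 times. Of the windows 17.5% hold it at any count, and the share that hold it 2 times was not counted. A match, or the lack of one, is a description of letters, not of a site in use.

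Within 2 Mb of Mir342 on chromosome 12, 10 other miRNAs were measured. MiR-345-5p and miR-345-3p come from a hairpin 178.4 kb away. The other 8 belong to the Dlk1-Dio3 region, an imprinted domain that holds a large cluster of miRNAs. They are miR-127-3p, miR-434-5p, miR-434-3p, miR-411-5p, miR-381-3p, miR-541-5p, miR-409-3p and miR-410-3p, and they share a cluster, so they are not independent of each other.

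At 24 h the Ikaros line was lower in 7 of the 10 and higher in 0 (limma, all miRNAs), where 22.0% of miRNAs were called lower. At 0 h 7 of 10 were lower, where 4.05% of miRNAs were called lower and 4.48% higher. MiR-434-3p passed only at 0 h and miR-409-3p only at 24 h. The members of the Dlk1-Dio3 region had low mean levels, from 1.03 (miR-381-3p) to 3.16 (miR-127-3p). The median difference of the 10 was -1.23 at 0 h and -0.87 at 24 h, against -0.03 and -0.07 over all miRNAs. The count at 24 h was 4 without replicate 2, 2 without replicate 4 and 3 with the median of each sample subtracted. At 0 h it was 4 without replicate 2 and 3 without replicate 4.

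MiR-127-3p, which is antisense to the imprinted gene Rtl1, was between 4.15 and 4.83 in the control samples and between 1.53 and 2.36 in the Ikaros samples at 0 h. At 24 h it was between 3.68 and 4.45 and between 1.83 and 2.54. Its difference was -2.61 (SE 0.39, limma adjusted p = 2.5e-05) at 0 h and -2.00 at 24 h (limma adjusted p = 0.00014). For 24 h beyond 0 h 0 of the 10 passed in either direction, where 5.76% of miRNAs were called higher and 6.61% lower. For the Ikaros samples of 24 h against 2 h 0 of 10 passed as well, and their median change was 0.02. The largest of these values, picked after they were seen, were those of miR-541-5p, at 1.06 (SE 0.66, limma adjusted p = 0.312) beyond 0 h and 0.75 (SE 0.47, limma adjusted p = 0.244) from 2 h. The line difference of this region was thus present at 0 h, when miR-342-3p differed by 0.10.

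Of the miRNAs known for roles in blood cells 18 rows were measured. Of these, the Ikaros line had 3 higher and 2 lower at 24 h (limma), or 16.7% higher against 17.9% of all miRNAs and 11.1% lower against 22.0%. These were miR-223-3p, miR-21a-5p and miR-181b-2-3p (1.00, limma adjusted p = 0.00512) as higher, and miR-155-3p and miR-181a-1-3p (-0.61, limma adjusted p = 0.0039) as lower. MiR-181a-1-3p is abundant, with a mean level of 14.3. Without replicate 1, 2 or 4 the total was 3 each time. MiR-21a-5p rose beyond 0 h by 1.21 (limma adjusted p = 7.3e-05), from a difference of -0.81 at 0 h to 0.40 at 24 h. MiR-223-3p, a marker of myeloid cells, was between 1.30 and 1.91 in the control line and between 3.09 and 4.58 in the Ikaros line at 24 h. Its difference was 2.06 there (limma adjusted p = 0.00052) and -0.02 at 0 h, where its range in the Ikaros line was 1.14 to 2.29. It was not among the 5 miRNAs most like miR-342-3p. MiR-223-3p was the only myeloid marker listed, and its part in the result was not tested.

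Beyond 0 h 2 of the 18 were higher and 2 lower, 11.1% each, where 5.76% of all miRNAs were higher and 6.61% lower. The lower ones were miR-146a-5p, which restrains signalling to NF-kB, at -1.29 (limma adjusted p = 0.00374), and miR-155-3p, the partner arm of miR-155-5p, at -1.15 (limma adjusted p = 0.0316). The total of 4 was 1 without replicate 1, 1 without replicate 2, 2 without replicate 4 and 7 with the replicate block. Between 2 h and 24 h of the Ikaros series 3 were higher later and 3 lower, 16.7% each, where 9.81% and 18.8% of all miRNAs were. The total of 6 was 3 without replicate 2. MiR-142-5p and miR-181a-5p, abundant in lymphoid cells, differed by -0.16 and 0.17 at 24 h and did not pass (limma adjusted p = 0.694 and 0.514).

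Like Mir342, the only hairpin of 175 other measured miRNAs lies in an intron of a protein-coding gene on its strand. At 24 h 39 of them were higher and 21 lower (limma), against 17.9% higher and 22.0% lower among all miRNAs, and their median difference was 0.09. The total of 60 was 34 without replicate 2. Already at 0 h 15 were higher (8.57%) and 3 lower (1.71%), against 4.48% and 4.05% of all miRNAs. Several of the 175 share a hairpin or a cluster, so they are not independent of each other. Beyond 0 h 12 were higher (6.86%) and 6 lower (3.43%), where 5.76% of all miRNAs were higher and 6.61% lower. Their total of 18 was 2 without replicate 1, 9 without replicate 2 and 11 without replicate 4. Between 2 h and 24 h of the Ikaros series 18 were higher later and 21 lower, where 9.81% and 18.8% of all miRNAs were. This total of 39 was 21 without replicate 1 and 17 without replicate 2. In percent, 22.3% were called higher at 24 h, 6.86% beyond 0 h and 10.3% from 2 h. The shares called lower were 12.0%, 3.43% and 12.0%, below those of all miRNAs.

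The intronic miRNAs that passed both for 24 h and for 24 h beyond 0 h with the largest differences at 24 h were miR-3091-3p (-3.70), in Rps21, miR-362-3p (3.46), miR-501-5p (3.50), miR-532-3p (3.06) and miR-500-3p (3.27). The other 4 come from introns of Clcn5, the gene of a chloride and proton exchanger, and share a cluster. Their lines differed by 1.42 to 1.87 at 0 h. MiR-342-3p, at 1.28 at 24 h and 0.10 at 0 h, moved less than these at 24 h. Of the 391 measured rows that matched a RefSeq mature sequence, none besides miR-342-3p itself had its seed.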

How the data were processed

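Small RNA of 36 B3 samples was measured. Per the methods, the authors aligned reads to mouse miRBase with Novoalign, counted them with multiBamCov, filtered on CPM with NOISeq, corrected GC content (cqn), normalised (TMM), corrected the sequencing batch (ComBat) and averaged technical replicates. Values were deposited as log2. They hold no counts, so depth and counting intervals are unknown.

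One limma model (limma 3.58.1, R 4.3.3, lmFit and eBayes with a trend) gave a mean to each of the 12 groups of line and time. P-values were adjusted by Benjamini-Hochberg over the 469 miRNAs and called under 0.05. The script was tested on simulated data. The pairing of same-numbered samples of both lines comes from the culture batch in the labels. Deviations of these samples from their group means had r of 0.34, 0.27, 0.41, 0.25, 0.06 and 0.26 at 0, 2, 6, 12, 18 and 24 h. The block was used as an alternative. Other alternatives were median subtraction, quantile normalisation, group medians, leaving out each replicate, only the groups compared, leaving out the lowest 25% of miRNAs, and eBayes without a trend.

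Named were both arms, the 5 miRNAs with the highest and the 5 with the lowest Pearson correlation with miR-342-3p over group means, all members of the lists on Ldha, blood cells, neighbours within 2 Mb and shared seed, and up to 5 intronic miRNAs called both at 24 h and beyond 0 h. The members and lists were chosen with earlier results of these data known. RefSeq mature names matched 391 of the 469 rows, and positions refer to GRCm38.p6 with GENCODE vM21 genes, not to the authors' alignments. Correlations were computed in Python 3.11.15 and figures drawn with matplotlib 3.10.9.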

Additional observations from a re-analysis of the deposited data

Results flagged for a closer look

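For 15 of the named miRNAs outside miR-342, the line difference at 24 h differed from that at 0 h. The test was limma's, of the difference itself, over all miRNAs. For the blood cell list, the shares beyond 0 h are given above beside those of all miRNAs. Most of the 15 were named on this test or on their course over the same groups, so the count is not a result. In the blood cell list these were miR-223-3p (2.08, adjusted p = 0.0281), miR-21a-5p (1.21, adjusted p = 7.3e-05), miR-146a-5p (-1.29, adjusted p = 0.00374) and miR-155-3p (-1.15, adjusted p = 0.0316). In the intronic list they were miR-3091-3p (-2.95, adjusted p = 0.00283), miR-362-3p (1.93, adjusted p = 0.00283), miR-500-3p (1.85, adjusted p = 0.0152), miR-501-5p (1.64, adjusted p = 0.0225) and miR-532-3p (1.55, adjusted p = 0.00917). These intronic miRNAs were named because they passed this test, so that their passing adds nothing. Of the miRNAs with the most like or most opposite courses, the values were 0.87 for miR-872-3p, 0.76 for miR-361-5p, 1.61 for miR-22-5p, 1.38 for miR-29c-3p, -2.93 for miR-92a-1-5p and -1.28 for miR-467c-5p. These were named for their course over the same groups, so no p is given for them.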

How the results depend on the processing

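The difference of miR-342-3p kept its sign at each time and contrast under all settings run. With sample medians subtracted, all line differences rose by 0.08, 0.01, 0.16, 0.07, 0.17 and 0.23 from 0 h to 24 h, and that of miR-342-3p was 1.38 at 18 h and 1.51 at 24 h, with 1.34 for 2 h to 24 h in the Ikaros line. Quantile normalisation gave 0.21 at 2 h. Leaving out a replicate gave 0.06 to 0.12 at 0 h, 0.38 to 0.65 at 2 h, 0.26 to 0.35 at 6 h, 0.60 to 1.01 at 12 h, 1.18 to 1.25 at 18 h and 1.13 to 1.49 at 24 h. It gave 0.91 to 1.33 for 2 h to 24 h in the Ikaros line, 0.22 to 0.46 in the control line and 1.00 to 1.36 for 24 h beyond 0 h. A replicate block by culture batch left the value of 24 h at 1.28, and the pairing of samples changed no call of miR-342-5p (12 h adjusted p = 0.048 by limma). The 12 h call of miR-342-5p was lost with quantile normalisation (0.64, adjusted p = 0.0868 by limma), and over all its alternatives the adjusted p ranged from 0.00645 to 0.347. Without a replicate its differences ranged from -0.32 to 0.088 at 0 h and from -0.028 to 0.40 at 6 h, with the sign turned without replicate 2 at both. Of the 5 miRNAs most like miR-342-3p, 2 were among the 10 most like by Spearman correlation, miR-872-3p in place 4 and miR-22-5p in a tie for place 10.

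Of all miRNAs, 187 were called at 24 h (110 without replicate 2), 58 beyond 0 h (12 to 31 when a replicate was left out) and 134 for 24 h against 2 h of the Ikaros series (54 to 128, or 71 in a model of only the groups compared). With medians subtracted 111 of 176 calls at 24 h were higher (84 of 187 as deposited), 29 of 45 beyond 0 h (27 of 58) and 72 of 120 for the Ikaros line (46 of 134), where quantile normalisation gave 59 of 118. When a replicate was left out, the neighbours of Mir342 gave 2 to 6 calls at 24 h and 3 to 6 at 0 h (7 and 7 with all samples), the Ldha list 0 to 1 (1), the blood cell list 3 to 3 (5), beyond 0 h 1 to 2 (4) and in the Ikaros series 3 to 6 (6), and the intronic list 34 to 47 (60), beyond 0 h 2 to 11 (18) and in the Ikaros series 17 to 44 (39). The last was 20 in a model of only the groups compared. With medians subtracted the neighbours gave 3 calls at 24 h, and the Ldha list 2, as with quantile normalisation. Quantile normalisation gave 2 calls of blood cell miRNAs beyond 0 h, and the replicate block gave 7, and 0 in the Ldha list. Without the lowest 25% of miRNAs, 4 of the neighbours were called at 24 h and 4 at 0 h. The cause of these shifts was not tested. The values keep no read depth, so what a single sample could detect is unknown.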
